A study of Saccharomyces cerevisiae with 4 samples.

Results

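The 9 genes described here make, break down or feed trehalose in budding yeast (Saccharomyces cerevisiae). They are TPS1, TPS2, TPS3 and TSL1 of the synthase complex, the trehalase genes NTH1, NTH2 and ATH1, and UGP1 and PGM1 of sugar-nucleotide supply. Members were taken by gene symbol from the array platform's table of probe sets and genes, and each of the 9 had 1 probe set of its own, among 5656 genes with such a probe set. All 9 were bright enough to be tested. The rule used no measured values, although the list was proposed with results of these arrays known.

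RNA came from a strain whose histone H3 carries glycine at 8 lysines, at positions 4, 9, 14, 18, 23, 27, 36 and 79, and from a wild-type strain. Total RNA of both strains was taken in mid-log phase in YPD, a rich glucose medium, and 2 one-colour arrays were run per strain (n = 2). The wild-type arrays are labelled as the reference of a second H3 mutant as well, which was not analysed here. The labels give no mating type, ploidy or other genotype and do not say whether replicates were separate cultures. The p-values therefore rest only on spread between these 4 arrays, which may be technical. The limma test used below draws each gene's variance towards that of genes of similar signal. An SE is therefore not the spread of that gene's own arrays alone. The question was which transcripts differ when these H3 lysines are replaced together.

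Trehalose is a glucose disaccharide that yeast stores as cultures leave rapid growth and that protects proteins and membranes during heat and drying. Tps1 joins glucose phosphate to UDP-glucose, and Tps2 removes the phosphate to leave trehalose. Both work in a complex with the larger regulatory subunits Tps3 and Tsl1. Neutral trehalase, encoded by NTH1 and its paralog NTH2, splits trehalose in the cytosol, while acid trehalase (ATH1) is known for breaking down trehalose supplied from outside. In glucose-rich growth many of these genes are held down by the Ras and protein kinase A pathway and are known targets of the stress factors Msn2 and Msn4.

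Several facts about the arrays touch the results below. Replicate arrays correlated across tested genes at r = 0.989 in the H3 mutant and 0.991 in wild type, against 0.942 to 0.949 between groups (genes are not independent replicates). In a run of probe sets numbered from 5600 to below 6700 on the array design, the 2 mutant arrays agreed less well with each other. The SD of their log2 difference was 0.352 over 650 tested genes there and 0.164 over the other 3826, against 0.168 and 0.191 between the wild-type arrays. TPS2 and NTH1 are read by probe sets in this run, and the other 7 members are not. Hybridization controls, which are added to each sample, had geometric mean signals of 174 and 201 on the mutant arrays and 138 and 141 on the wild-type arrays. Results below are on the authors' scaling, and changes under scaling to these controls are given beside the result or in the closing section. Of 3 probe sets paired with both H3 genes, 1 gave 75.4 ± 0.283 in the mutant and 680 ± 56.7 in wild type (SD, n = 2 each). Another gave 4142 ± 74.4 in the mutant and 3235 ± 490 in wild type (SD, n = 2 each), and the third was near 0 in both. A change of codons may leave the amount of mRNA as it was. Why these probe sets went opposite ways was not tested, and their values were not used to check the labels. Markers of a cells and of haploid cells were nearly lost in the mutant. The 6 a-cell genes summed to 113 and 109 on the mutant arrays and to 2272 and 2553 on the wild-type arrays, and 6 of 6 tested were lower. The 7 haploid genes summed to 131 and 147 in the mutant and 1056 and 995 in wild type, and 6 of 6 tested were lower. The 4 alpha-cell genes summed to 156 and 152 in the mutant and 90.3 and 85.1 in wild type, with the alpha-factor and STE3 genes close to the floor in both. SAG1, the 1 of them tested, was higher, at 111 in the mutant and 43.05 in wild type (limma adjusted p = 0.000212). The part of such strain differences in the results on trehalose genes was not tested. With 1 strain per group it cannot be told apart from that of the H3 change. In RNA of whole cultures, fewer cells with a transcript and less of it per cell cannot be told apart.

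Transcripts of a regulatory synthase subunit and of a neutral and the acid trehalase were higher in the H3 mutant, while the catalytic synthase genes did not pass the test. TSL1, NTH2 and ATH1 rose by 0.61, 0.55 and 0.51 on the log2 scale, each with an SE close to 0.1, and PGM1 fell by 0.28. Fold changes here are mutant minus wild type on the log2(signal + 16) scale, where changes of dim genes come out too small. A gene was called at a Benjamini-Hochberg adjusted p under 0.05 in limma over all 4476 tested genes. Of the 9 members 3 rose, 1 fell and 5 did not pass, so 44.4% were called, beside 29.8% of all tested genes. The shares by direction were 33.3% higher and 11.1% lower, beside 14.3% and 15.5% of all tested genes. Their median log2 fold change was 0.15, and that of all tested genes was -0.03. Under scaling to the hybridization controls these medians were -0.25 and -0.39. That scaling called 0 members higher and 2 lower, beside 205 higher and 2490 lower among 4475 tested genes. In 6 of 9 members (66.7%) the mutant arrays did not overlap the wild-type arrays, a share close to the 67.4% of all tested genes. No test of the list as a whole was made.

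**Figure D1:**
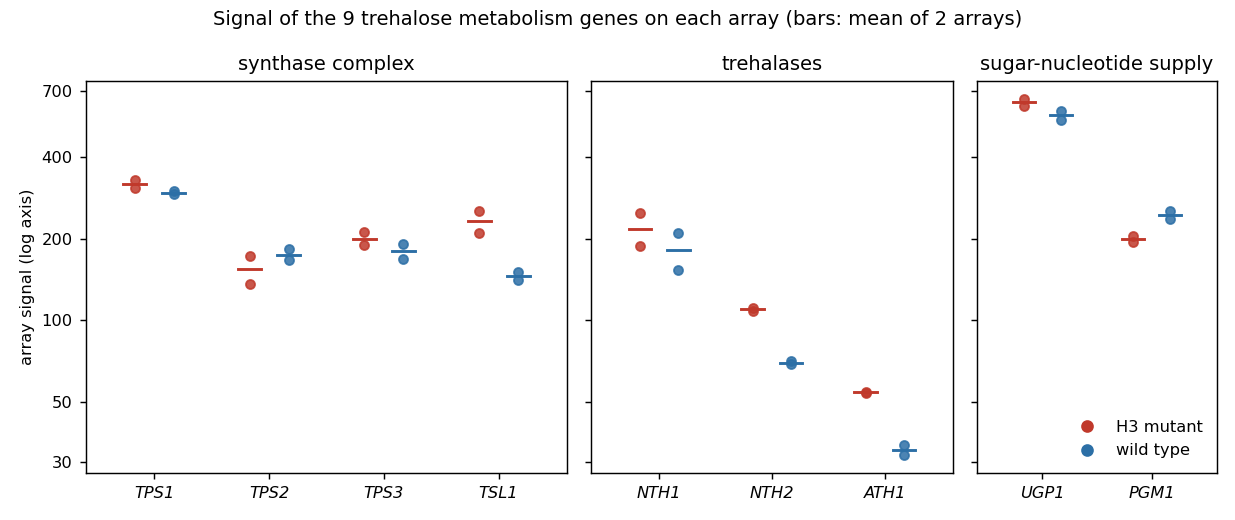
Array signal (log axis) of each of the 9 genes, with 1 point per array, H3 mutant in red to the left of wild type in blue, and a bar at the mean of 2 arrays. The mutant points of TSL1, NTH2 and ATH1 lie clear above the wild-type points and those of PGM1 below, while the points of TPS2, TPS3 and NTH1 overlap between groups.

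TSL1, which encodes a regulatory subunit of the synthase complex, had signals of 210.3 and 252.4 on the mutant arrays and 141.3 and 150.1 on the wild-type arrays. Both mutant arrays were above both wild-type arrays. The means were 231 ± 29.8 in the mutant and 146 ± 6.22 in wild type (SD, n = 2 each), a ratio of 1.59 between mean signals. The log2 fold change was 0.61 ± 0.108 (SE, limma adjusted p = 0.0034), higher than that of 94.2% of tested genes. Its 95% interval was 0.36 to 0.85. The spread between the mutant arrays was wider than that between the wild-type arrays, and without mutant array 2 the estimate was 0.49 (adjusted p = 0.0267).

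TPS3, the paralog of TSL1 and the other regulatory subunit, gave 210.7 and 189.2 in the mutant and 191.2 and 168.8 in wild type. These ranges overlapped, and the log2 fold change of 0.14 ± 0.103 (SE) did not pass (limma adjusted p = 0.331). Its 95% interval, -0.09 to 0.37, overlaps that of TSL1 only at its upper end. The paralogs were set against each other as the log2 difference of TSL1 minus TPS3 within each array. This difference was -0.0025 and 0.39 on the mutant arrays and -0.40 and -0.15 on the wild-type arrays, so the groups did not overlap. The mean difference between groups was 0.47. An exact two-sided permutation test of 2 against 2 arrays cannot go below p = 0.333, the value it gave, so unequal change of the paralogs was not established.

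TPS1, the synthase itself, gave 328.5 and 308.3 in the mutant and 290.7 and 298.5 in wild type. The mutant arrays were the higher ones, but by little, with means of 318 ± 14.3 in the mutant and 295 ± 5.51 in wild type (SD, n = 2 each). Its log2 fold change was 0.11 ± 0.0898 (SE, limma adjusted p = 0.401), with a 95% interval of -0.10 to 0.31.

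TPS2, the phosphatase of the complex, gave 173.1 and 135.8 in the mutant and 166.2 and 182.6 in wild type. One mutant array lay within the wild-type range and the other below it, and its probe set is in the run where the mutant arrays disagree. The log2 fold change of -0.17 ± 0.121 (SE) did not pass (limma adjusted p = 0.325). It was -0.33 without mutant array 1 and -0.0085 without mutant array 2, so the estimate rests on which mutant array is kept.

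**Figure D2:**
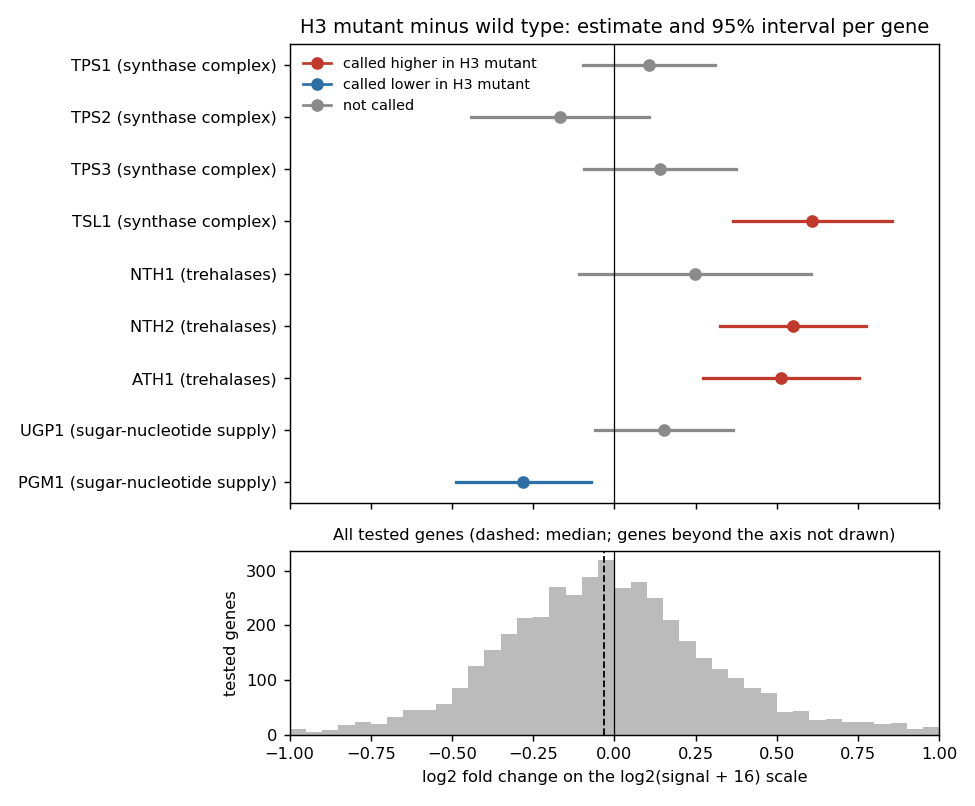
Upper panel, log2 fold change (H3 mutant minus wild type, log2(signal + 16) scale) of each gene with its 95% interval, red for called higher, blue for called lower and grey for not called. Lower panel, the same quantity over all tested genes, centred near -0.03. The intervals of TSL1, NTH2 and ATH1 lie to the right of 0 and that of PGM1 to the left, and the other 5 cross 0.

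All 3 trehalase genes had estimates above 0, as did 2054 of all 4476 tested genes. Of these 3 genes 2 were called higher, beside 14.3% of all tested genes. Under scaling to the hybridization controls NTH2 and ATH1 were not called (0.20 and 0.21, limma adjusted p = 0.291 and 0.25), and NTH1 turned to -0.14. NTH2 gave 111.2 and 108.3 in the mutant and 69.1 and 70.6 in wild type, so the replicates of each group lay close together and the groups far apart. The means were 110 ± 2.05 in the mutant and 69.8 ± 1.06 in wild type (SD, n = 2 each), a ratio of 1.57. The log2 fold change was 0.55 ± 0.0996 (SE, limma adjusted p = 0.00376), higher than that of 93.2% of tested genes.

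ATH1, the acid trehalase gene, was the dimmest member, with 54.2 and 54.5 in the mutant and 34.7 and 31.9 in wild type. The groups were again well apart. The means were 54.4 ± 0.212 in the mutant and 33.3 ± 1.98 in wild type (SD, n = 2 each), a ratio of 1.63. Its log2 fold change of 0.51 ± 0.106 (SE, limma adjusted p = 0.00729) is reduced most among the called members by the offset of 16, and was 0.69 with an offset of 1.

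NTH1, the main neutral trehalase, gave 187.7 and 247.9 in the mutant and 209.1 and 153.5 in wild type. Replicates differed widely in both groups and the ranges overlapped. The log2 fold change of 0.25 ± 0.158 (SE) did not pass (limma adjusted p = 0.268), and its 95% interval of -0.11 to 0.60 includes the estimate for NTH2. Leaving out 1 array moved it between 0.04, without wild-type array 2, and 0.45, without wild-type array 1. Without mutant array 1 it was 0.43, and without mutant array 2 it was 0.06. The within-array difference NTH1 minus NTH2 was 0.68 and 1.09 on the mutant arrays and 1.40 and 0.97 on the wild-type arrays, which overlapped, and the exact two-sided permutation p was 0.667. With 2 against 2 arrays this p cannot go below 0.333, so the test could not have established unequal change of the neutral trehalase paralogs.

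Of the 2 members of sugar-nucleotide supply, 1 fell and 1 did not pass, beside 15.5% called lower and 14.3% called higher among all tested genes. UGP1 makes UDP-glucose, the sugar donor of the synthase. It gave 614.2 and 653.9 in the mutant and 589.2 and 548.4 in wild type. The mutant arrays were higher without overlap, but the log2 fold change of 0.15 ± 0.0941 (SE) did not pass (limma adjusted p = 0.251, 95% interval -0.06 to 0.37), and it was -0.26 under the control scaling.

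PGM1, a phosphoglucomutase gene whose enzyme interconverts the glucose phosphates that lead to UDP-glucose, was the 1 member called lower. It gave 193.7 and 203.6 in the mutant and 252.8 and 236.5 in wild type, with means of 199 ± 7.0 in the mutant and 245 ± 11.5 in wild type (SD, n = 2 each). Both mutant arrays were below both wild-type arrays, with a log2 fold change of -0.28 ± 0.0921 (SE). The call was marginal (limma adjusted p = 0.0478) and was lost whichever array was left out, with adjusted p from 0.069 without wild-type array 2 to 0.208 without mutant array 1.

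PGM2, the paralog that encodes the main phosphoglucomutase, gave 120.1 and 137.0 in the mutant and 118.9 and 97.7 in wild type. Its log2 fold change was 0.22 ± 0.118 (SE) and did not pass (limma adjusted p = 0.188). The within-array difference PGM2 minus PGM1 was -0.62 and -0.52 on the mutant arrays and -0.99 and -1.15 on the wild-type arrays. The groups did not overlap, with a mean difference of 0.50, and the exact two-sided permutation p was 0.333, the smallest the design allows.

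In order of estimated change the members were TSL1, NTH2, ATH1, NTH1, UGP1, TPS3, TPS1, TPS2 and PGM1. The first 3 differed from one another by less than the SE of any of them, and so did UGP1, TPS3 and TPS1. The calls of TSL1, NTH2 and ATH1 held whichever array was left out, with adjusted p from 0.00319 to 0.0413 for TSL1, 0.0226 to 0.0302 for NTH2 and 0.0316 to 0.0411 for ATH1. Scaling to the hybridization controls ended these 3 calls, with log2 fold changes of 0.22, 0.20 and 0.21 and adjusted p of 0.212, 0.291 and 0.25. That scaling left PGM1 and TPS2 as the members called, both lower, at -0.67 and -0.55 (limma adjusted p = 9.44e-05 and 0.00172). The calls of TSL1, NTH2 and ATH1 therefore hold on the authors' scaling and not on that to the controls. Why these scalings differ was not tested.

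**Figure D3:**
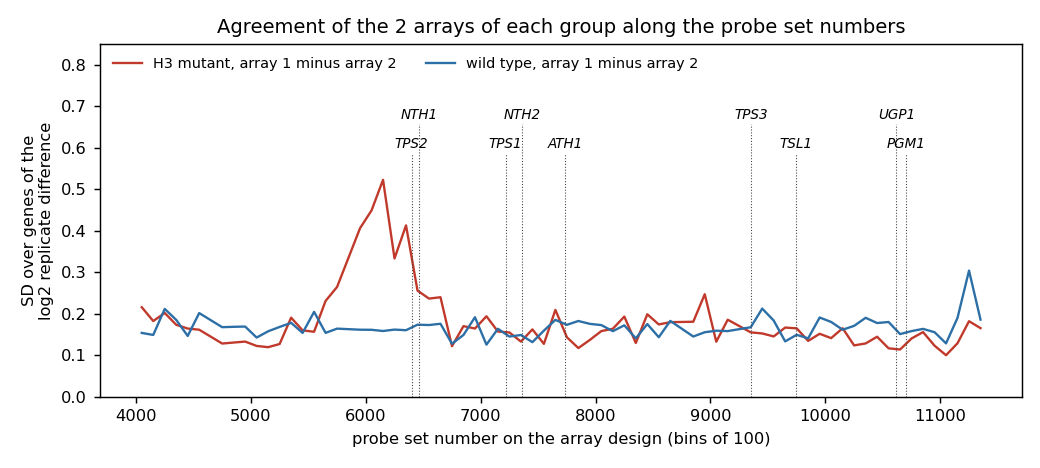
SD over tested genes of the log2 difference between the 2 arrays of a group, in bins of 100 probe set numbers with at least 20 genes, for the H3 mutant (red) and wild type (blue). Dotted lines mark the members' probe sets. The mutant curve stands above the wild-type curve from 5600 to below 6700, where TPS2 and NTH1 lie, and the other 7 members fall outside this run.

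Among genes that supply hexose phosphate, 3 of 6 tested rose and 0 fell, beside 14.3% and 15.5% of all tested genes. All 6 estimates were above 0 on the deposited scaling, as were those of 2054 of all 4476 tested genes. The list's median was 0.34, and 0.0039 under scaling to the hybridization controls. PRM15, a phosphoribomutase gene with minor phosphoglucomutase activity and related to PGM1, gave 136.1 and 112.4 in the mutant and 59.0 and 49.9 in wild type. Its log2 fold change was 0.99 ± 0.123 (SE, limma adjusted p = 0.000555), and it was called under the control scaling too, at 0.64. GLK1, the glucokinase gene, gave 662.4 and 782.1 in the mutant and 502.0 and 459.6 in wild type, and rose by 0.57 on the log2 scale. EMI2, its paralog, gave 42.8 and 42.4 in the mutant and 25.6 and 27.5 in wild type and rose by 0.46. The EMI2 probe set is in the run where the mutant arrays disagree, and its call was lost without mutant array 1 or wild-type array 1 (limma adjusted p = 0.0516 and 0.0585), and GLK1 and EMI2 were not called under the control scaling.

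Among genes for trehalase regulators and trehalose uptake, 2 of 5 tested rose and 0 fell, beside 14.3% and 15.5% of all tested genes. The median was 0.29, and -0.071 under the control scaling. MAL11, which encodes an alpha-glucoside transporter that also carries trehalose, gave 132.7 and 131.8 in the mutant and 37.2 and 32.8 in wild type. It rose by 1.54 ± 0.106 on the log2 scale (SE, limma adjusted p = 1.82e-05), above 99.4% of tested genes. BMH2 encodes a 14-3-3 protein of the kind that activates phosphorylated Nth1. It gave 922.5 and 968.7 in the mutant and 747.0 and 791.0 in wild type, and rose by 0.29 (limma adjusted p = 0.0452). BMH2 was not called with median centring (limma adjusted p = 0.1) and gave -0.12 under the control scaling. Its probe set is in the run where the mutant arrays disagree, and its call was lost whichever array was left out, with adjusted p from 0.0691 to 0.215, which left 1 gene of this list called. BMH1, the other 14-3-3 gene of this list, gave 1003.6 and 943.8 in the mutant and 1065.2 and 1196.8 in wild type. Its log2 fold change of -0.21 went the other way from that of BMH2 and did not pass (limma adjusted p = 0.155). DCS1, reported to restrain neutral trehalase, gave 0.30 and just missed the threshold (limma adjusted p = 0.0502). Both BMH1 and DCS1 were singled out after their values were seen.

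Genes of the Ras and protein kinase A pathway and of stress factors went both ways. Of 16 tested, 5 rose (31.2%), 3 fell (18.8%) and 8 did not pass, beside 14.3% higher and 15.5% lower among all tested genes. The median was -0.08, and -0.42 under the control scaling. RIM15 encodes a kinase of entry into the resting state that protein kinase A inhibits. It gave 106.7 and 104.2 in the mutant and 57.9 and 52.4 in wild type, and rose by 0.77 ± 0.104 on the log2 scale (SE, limma adjusted p = 0.000829). CYR1, the adenylate cyclase gene, gave 163.0 and 163.7 in the mutant and 117.2 and 90.7 in wild type and rose by 0.59, on a probe set of a type that can share probes with other transcripts. CYR1 was not called under the control scaling (0.22, limma adjusted p = 0.235). YAK1, a kinase gene that opposes growth, and IRA1 and IRA2, which encode inhibitors of Ras, rose by 0.34, 0.34 and 0.33, estimates that were slightly negative and not called under the control scaling. The YAK1 probe set is likewise of a type that can share probes with other transcripts. The YAK1 and IRA1 calls were lost whichever array was left out, and the IRA2 call was lost except without wild-type array 1. The Ras genes RAS1 and RAS2 and TPK3, for a catalytic subunit of protein kinase A, fell by 0.43, 0.36 and 0.42. Without 1 array the list held 2 to 3 higher calls and 0 to 3 lower ones. RIM15 and CYR1 were called higher in each of these fits, and 0 genes were called lower without mutant array 1 or wild-type array 1. MSN2 and MSN4, singled out after their values were seen, gave -0.14 and -0.09 and did not pass (limma adjusted p = 0.322 and 0.625). Under the control scaling both were called lower, at -0.51 and -0.43 (limma adjusted p = 0.00402 and 0.0174).

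Of the other genes that use UDP-glucose or build wall glucan from it, 3 of 7 tested rose (42.9%), 1 fell (14.3%) and 3 did not pass, beside 14.3% higher and 15.5% lower among all tested genes. The median was 0.18, and -0.20 under the control scaling. GSC2, a stress-induced glucan synthase gene, gave 298.8 and 251.6 in the mutant and 85.2 and 95.1 in wild type. It rose by 1.45 ± 0.111 on the log2 scale (SE, limma adjusted p = 3.19e-05), also on a probe set that can share probes with other transcripts. GSY1, a glycogen synthase gene, gave 65.2 and 86.1 in the mutant and 39.3 and 44.9 in wild type and rose by 0.65. The glycogenin gene GLG2 gave 41.7 and 45.6 in the mutant and 29.5 and 26.9 in wild type and rose by 0.43, and KRE6, of wall glucan synthesis, fell by 0.37. Under the control scaling GSY1 and GLG2 were not called (0.32 and 0.14, limma adjusted p = 0.0764 and 0.431). GSC2 alone stayed called higher without mutant array 2 or without wild-type array 1. GLG2 was not called without wild-type array 2 either, and KRE6 was called in only 1 of the 4 fits without an array, the one without mutant array 1. Under scaling to the hybridization controls the calls of the 4 lists were 1 higher and 1 lower for hexose phosphate supply, 1 and 1 for trehalase regulators and uptake, 1 and 9 for the Ras and protein kinase A list, and 1 and 3 for users of UDP-glucose.

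**Figure D4:**
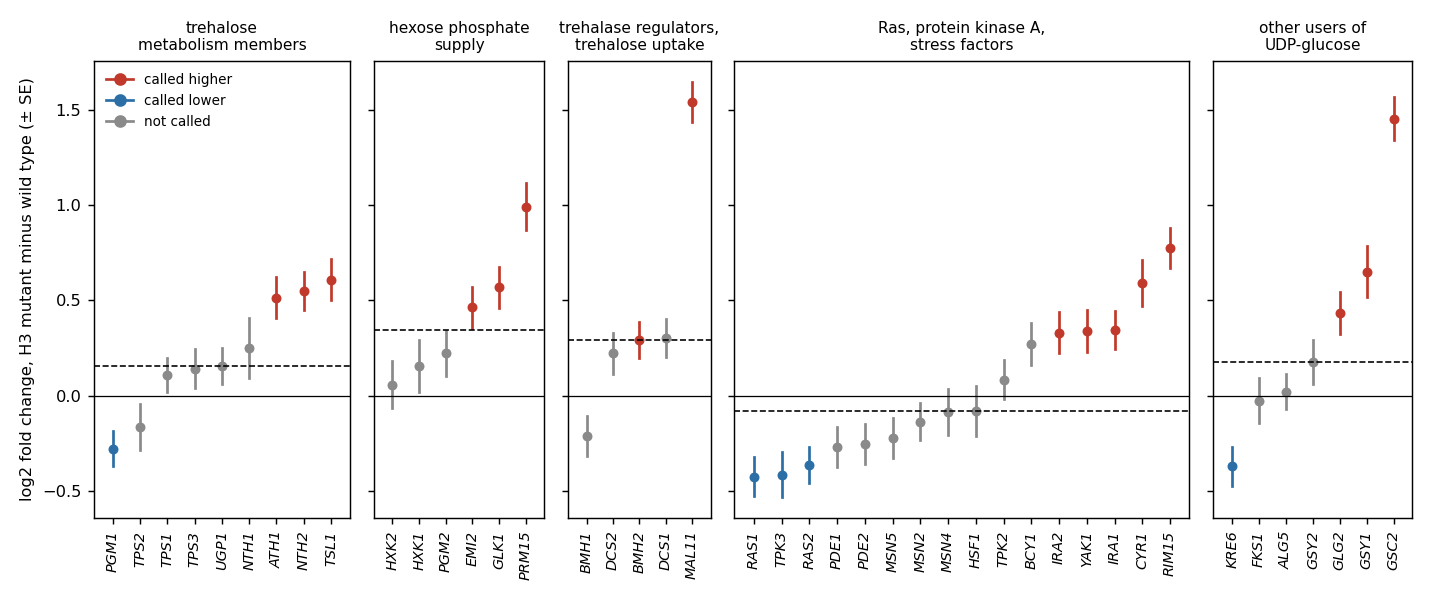
Log2 fold change (H3 mutant minus wild type) ± SE of each tested gene in the trehalose members and 4 related lists, ordered by value, red for called higher, blue for called lower and grey for not called, with the list median dashed. MAL11, GSC2 and PRM15 lie well above every trehalose member, and the Ras and protein kinase A list spreads to both sides of 0.

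**Figure D5:**
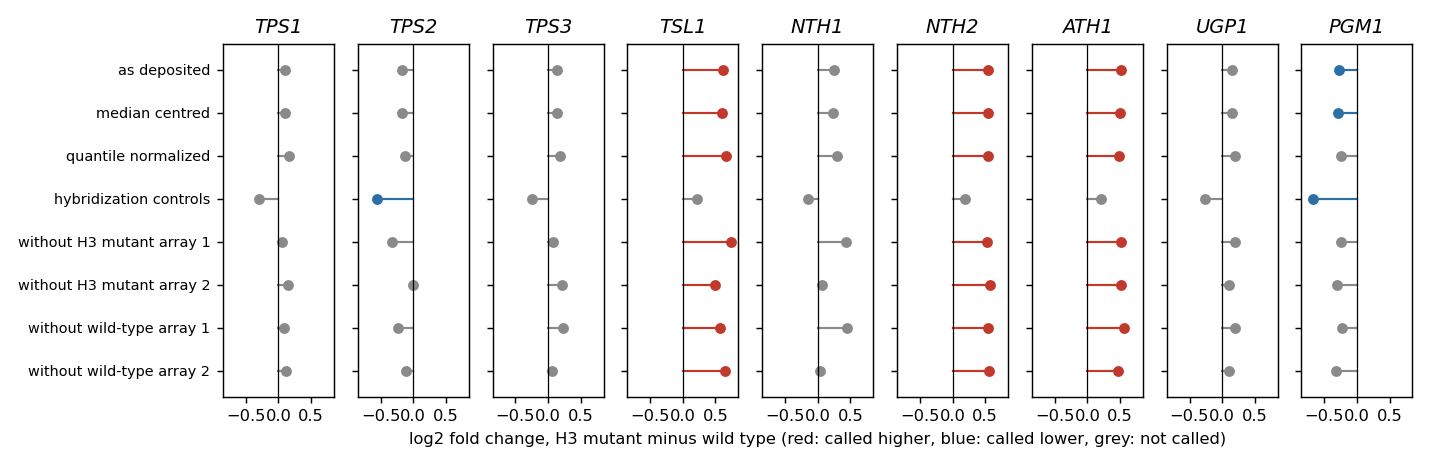
Log2 fold change of each member (H3 mutant minus wild type) under 4 scalings and with each array left out, red for called higher, blue for called lower and grey for not called. TSL1, NTH2 and ATH1 are called higher in every line but that of the hybridization controls, and PGM1 is called lower in 3 of the 8 lines.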

How the data were processed

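Members, gene lists, tests and alternatives were chosen with earlier results of these data known. The authors deposited 1 linear intensity per probe set and array, computed by MAS5 according to the submitters' processing notes. The sources used here give neither its version and scaling target nor the genome build. Trimmed means were equal (125.1 on each array), so no scaling was added. Of 9335 probe sets, 6504 had 1 gene, named through gene identifiers in the RefSeq table (assembly R64), and others were not used. The brightest probe set per gene was kept if its mean log2 signal reached the 25th percentile (signal 25.1), which left 4476 genes. Log2(signal + 16) was fitted with limma 3.58.1 in R 4.3.3 (lmFit, eBayes with intensity trend, Benjamini-Hochberg), with 2 residual degrees of freedom and a prior of 7.03, and the code was tested on simulated data. At an unadjusted p under 0.05, 1908 genes passed. The number of arrays limits precision. Named were all members, PGM2 and the called genes of the lists, and, after their values were seen, BMH1, DCS1, MSN2, MSN4 and the genes beside members. Figures used matplotlib 3.10.9.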

Additional observations from a re-analysis of the deposited data

How the results depend on the processing

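Under 15 alternatives planned for each member (14 for ATH1, which a filter at the median removed), the direction changed only with scaling to the hybridization controls, for TPS1 (-0.29), TPS3 (-0.25), NTH1 (-0.14) and UGP1 (-0.26). Of the list genes named in the text PGM2 (-0.15), BMH2 (-0.12), DCS1 (-0.071), IRA1 (-0.0206), IRA2 (-0.0471) and YAK1 (-0.0159) turned under that scaling. MSN4 lay between -0.22 and 0.0513 with 1 array left out, above 0 without wild-type replicate 1. The cause was not tested. That scaling called 2695 genes, 7.61% of them higher against 48.0% as deposited, and among members 0 higher and 2 lower. A threshold of 0.01 called 640 genes, with 57.3% higher and 0 members lower. The count of called genes was 771 to 914 without 1 array, with 60.5% higher without wild-type replicate 1, and 0 members were then called lower. PGM1 was also not called with quantile normalization, all probe sets tested or no intensity trend (0 members lower in each). The replicate block called 1766 genes and the same number of members, 3 higher and 1 lower. The numbers are not stated to pair samples, and deviations of replicate 1 in the groups correlated at 0.13. Leaving out the run of disagreeing probe sets, chosen after seeing the data, called 1277 of 3832 genes. In a fit to that run alone TPS2 and NTH1 kept their values (adjusted p = 0.394 and 0.38).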

Other observations

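The protein-coding genes next to each member in the reference gene order (assembly R64) were read as well, a choice made after the members' values were seen. Of 18 such neighbours 13 were bright enough to test, and 0 rose, 4 fell and 9 did not pass, beside 14.3% higher and 15.5% lower among all tested genes. NTH2 rose while the genes on both sides of it fell. ECM15 gave 206.8 and 202.6 in the mutant and 265.2 and 255.7 in wild type, and RER2, a gene of dolichol synthesis, gave 74.5 and 82.2 in the mutant and 106.3 and 117.1 in wild type. Their log2 fold changes were -0.32 and -0.44 (limma adjusted p = 0.0245 and 0.0154). The ECM15 call was lost without any 1 array, and the RER2 call without mutant array 1 or wild-type array 2 (adjusted p = 0.101 and 0.0729). Beside PGM1, PMU1 fell too, with 153.4 and 159.4 in the mutant and 207.8 and 210.3 in wild type (-0.38, limma adjusted p = 0.0133), a call lost without mutant array 1 or wild-type array 2. SNF11, beside TPS2, gave 37.0 and 17.1 in the mutant and 62.2 and 51.6 in wild type (-0.80, limma adjusted p = 0.0168). Its probe set is in the run where the mutant arrays disagree, and its estimate was -0.46 without mutant array 2. Its call was lost there, without either wild-type array (adjusted p = 0.142 and 0.073) and in a fit to that run alone (adjusted p = 0.0834). Neither neighbour of TSL1 was bright enough to test.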
